A study of Mus musculus with 4 samples.

Results

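The 10 genes described here, Klf2, Klf3, Klf6, Klf13, Foxo1, Foxo3, Foxp1, Tob1, Btg1 and Btg2, are known as factors that hold lymphocytes in a resting state. They were taken by name from 50600 annotated genes, with no threshold on measured values, though earlier results of these data were known. Their RNA was followed in 4 libraries made from T cells of C57BL/6NJ animals, a commonly used inbred mouse strain. The labels number these libraries as biological replicates 1 to 4 of a single group. Age and sex of the animals are not recorded, all 4 carry the same donor entry, and no label says that the libraries came from separate animals. The assay is labelled total RNA-seq and the linked library protocol is titled for poly(A)+ RNA. A linked protocol concerns CD4+ T-cell differentiation, and the names of the alignments inside the files hold the words Th0, activated and 24 h for every library. Without a resting or otherwise treated group, no change with activation could be measured, and the comparisons below are between genes and between replicates. P-values measure only the spread between these libraries.

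A T cell that has not met antigen stays small and out of cycle, and this state is kept actively by transcription factors and by proteins that shorten mRNA tails. KLF2 is a zinc-finger factor that supports lymph-node homing and exit genes, and FOXO1 and FOXO3 are forkhead factors that the kinase AKT drives out of the nucleus when the antigen receptor, CD28 or IL-2 signals. FOXP1, another forkhead factor, opposes FOXO1 at the Il7r gene and holds naive cells quiet. TOB1, BTG1 and BTG2 belong to the anti-proliferative BTG and TOB family, which bind the deadenylase subunits of the CCR4-NOT complex and hasten the loss of poly(A) tails. Much of the control of FOXO proteins lies in phosphorylation and location, which RNA levels do not show.

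Fragments assigned to genes numbered 48608896 in replicate 3, 47558517 in replicate 4 and 60102919 in replicate 1, while replicate 2 was the deepest with 273136467. All members were counted deeply, from 490 fragments of Klf2 in replicate 4 to 80343 of Foxp1 in replicate 2. Defining T-cell genes were abundant, with Cd3e at 209 to 243 TPM and Cd4 at 653 to 737 TPM, while of the CD8 chains Cd8a had 0.804 to 0.862 TPM and Cd8b1 41.8 to 50.3 TPM (TPM corrects counts for exon length and for the total of a library). Genes of other cells were low. The 6 B-cell markers summed to 2.14 to 5.28 TPM, and the 8 macrophage, monocyte and dendritic markers to 0.419 to 1.21. The 4 natural killer markers summed to 0.299 to 0.903, the 6 red-cell and platelet markers to 0.720 to 1.10, and none of the 5 neutrophil markers had a fragment. Of the 8 endothelial and stromal markers, which matter here because endothelium is rich in KLF2, Pecam1 had 9.07 to 13.9 TPM, Cdh5 had no fragment and Kdr had 2 fragments in all. Replicates 1 and 2 had 163 and 151 TPM of the X-silencing RNA Xist against 0.715 and 0.696 in replicates 3 and 4, and the Y-linked Ddx3y had 0.0434, 0.0219, 38.8 and 39.3 TPM in replicates 1 to 4. The 4 libraries therefore do not all come from a single animal, while libraries of the same pattern may share their source.

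All 10 members reached 10 TPM in every library, as did 16.0% of all annotated genes and 8109 of the 12712 genes that passed the filter on low counts. The median of the members' mean levels was 47.7 TPM, beside 23.0 TPM over those 12712 genes. The members summed to 547, 544, 568 and 555 TPM in replicates 1 to 4. In RNA of whole populations, fewer cells with a transcript and less of it per cell cannot be told apart. From highest to lowest mean level the order was Btg1, Btg2, Foxp1, Klf13, Foxo3, Klf6, Foxo1, Klf2, Klf3 and Tob1. Among the 11483 genes at 1 TPM or more in all libraries, Btg1 lay at percentile 86.9 to 88.1 and Tob1 at percentile 36.3 to 39.7, so the members spanned the middle and upper range of transcribed genes.

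**Figure D1:**
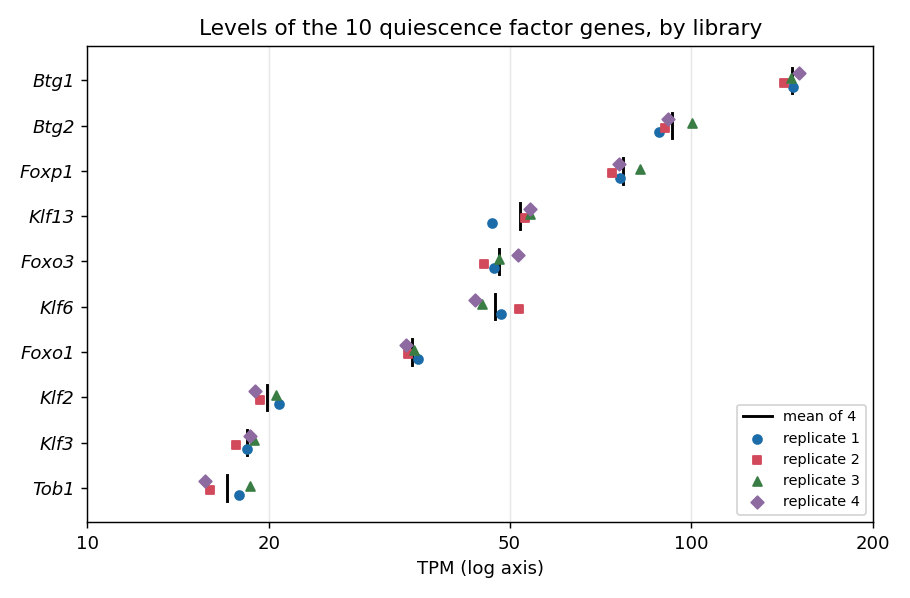
TPM of the 10 genes in each library on a log axis, with points for replicates 1 to 4 and a black line at the mean of 4. Btg1 stands apart at 143 to 151 TPM, Klf13, Foxo3 and Klf6 share a range of 43.9 to 54.1, and Klf2, Klf3 and Tob1 lie together between 15.6 and 20.8.

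The BTG and TOB genes held both the highest and the lowest member by TPM. By counts without length, Foxp1 was the highest and Klf2 the lowest. Btg1 (ENSMUSG00000036478.8, mm10 chromosome 10, 96617006 to 96622809, plus strand) stood at 147, 143, 146 and 151 TPM in replicates 1 to 4, a mean of 147 ± 3.45 (SD, n = 4). The 4 libraries thus lay within 1.06-fold of each other. Btg2 (ENSMUSG00000020423.6, chromosome 1, 134075170 to 134079120, minus strand), a gene also known as an early response and p53 target gene, stood at 88.5, 90.5, 100.3 and 91.6 TPM, a mean of 92.7 ± 5.19. Replicate 3 was the highest, and no Btg2 value reached the lowest Btg1 value. Tob1 (ENSMUSG00000037573.5, chromosome 11, 94211454 to 94215495, plus strand) stood at 17.8, 16.0, 18.6 and 15.6 TPM, a mean of 17.02 ± 1.44. Its counts of 502 to 2894 fragments give a counting error of 3.67% (root mean square over libraries), against a coefficient of variation of 8.45% between libraries.

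Tob1 was far below its paralog. Tob2, which encodes the closest relative of TOB1, stood at 156, 169, 178 and 165 TPM in replicates 1 to 4. Tob1 was lower than Tob2 by 9.83-fold, a log2 ratio of -3.30 ± 0.13 (mean ± SD, n = 4) with the same direction in 4 of 4 libraries. Tob1 therefore made up 3.99 ± 0.308% of the summed TPM of the 6 genes of the family, beside 39.1 ± 1.02% for Tob2, 34.4 ± 1.39% for Btg1 and 21.7 ± 0.517% for Btg2. By counts without length Btg1 was ahead of Tob2, with 44.5% against 38.3%. By longest coding transcript they were close, with 36.3% for Btg1 and 37.6% for Tob2. Btg3 had 0.854 ± 0.133%, at 3.13 to 4.43 TPM, and Btg4 was at 0 in replicates 1, 3 and 4, which at 3 fragments allows up to 0.0837 TPM. Btg1 exceeded Btg2 by 1.58-fold (log2 ratio 0.66 ± 0.09, n = 4) and Tob1 by 8.64-fold (3.11 ± 0.13, n = 4), each in 4 of 4 libraries.

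The reach of these pairwise tests is narrow. The test flipped the sign of the log2 ratio in each library in all possible ways, exactly and two-sided, and its smallest possible p with 4 libraries is 0.125, so none of the 15 pairs and neighbours compared could pass 0.05. That smallest value was reached by 12 of them (adjusted p = 0.156 by Benjamini-Hochberg over the 15, exact permutation test). The neighbours were set by the order of mean TPM in these same libraries. The direction of their steps was thus chosen from the values tested, and their p-values only describe them. Within a pair the lengths of the genes are the same in every library, so agreement among libraries says nothing of whether those lengths suit the transcripts made.

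The windows before the starts of Btg1 and Btg2, the highest members by TPM over all annotated exons, and of Klf2 are printed here. The reason is that each held 1 match to a factor's motif that few promoters have. They are the 250 bases before the RefSeq start (build GRCm38.p6), which for all of these genes is not the start in the deposited tables, read 5′ to 3′ on the gene's strand. Capitals mark the match. For Btg1 (chr10:96616751-96617000, plus strand) it is the FOXO motif GTAAACA read on the opposite strand. For Btg2 (chr1:134079156-134079405, minus strand) it is the cyclic AMP response motif TGACGTCA. For Klf2 (chr8:72318812-72319061, plus strand) it is a loose form of the MEF2 motif, CTA and TAG with any 4 bases between them. The search left these 4 bases free, and in the Klf2 match all are A or T.
Btg1: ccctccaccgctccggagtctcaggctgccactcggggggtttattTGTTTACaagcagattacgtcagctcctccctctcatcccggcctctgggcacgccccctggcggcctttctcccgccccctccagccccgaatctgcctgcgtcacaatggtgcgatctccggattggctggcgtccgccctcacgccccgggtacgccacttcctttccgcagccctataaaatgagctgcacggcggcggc
Btg2: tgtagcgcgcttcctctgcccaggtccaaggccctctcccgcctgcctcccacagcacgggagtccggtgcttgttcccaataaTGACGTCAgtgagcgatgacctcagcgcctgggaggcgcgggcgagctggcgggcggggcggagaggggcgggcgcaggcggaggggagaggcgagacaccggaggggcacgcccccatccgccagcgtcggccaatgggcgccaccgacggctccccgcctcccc
Klf2: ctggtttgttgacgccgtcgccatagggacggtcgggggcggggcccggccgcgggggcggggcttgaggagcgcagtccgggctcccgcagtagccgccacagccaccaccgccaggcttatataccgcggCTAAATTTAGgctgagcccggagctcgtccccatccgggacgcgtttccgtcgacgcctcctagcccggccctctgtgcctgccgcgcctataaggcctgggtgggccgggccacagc
The first base of the match lay 204, 166 and 118 bases before the start in Btg1, Btg2 and Klf2. Both strands were searched. The FOXO motif occurred in 3.17%, the cyclic AMP response motif in 1.56% and the loose MEF2 motif in 3.22% of 32536 RefSeq windows of that length. Each occurred in 1 of the 10 members. For a stricter MEF2 motif, with the inner bases held to A and T, the share of 3.22% is an upper limit. The KLF core CACCC matched in 5 of 10 members and in 52.1% of all windows. The GC box GGGCGG, to which SP factors bind, matched in 10 of 10 members and in 33.0% of all windows. A member counted as matched if any of its windows did, while the shares are per window. Foxp1 had 3 windows, of which 1 held neither CACCC nor GGGCGG. The member windows were rich in G and C, from 56.0% in Foxo1 to 78.4% in Klf3, except 1 of the 3 windows of Foxp1 at 45.2%, against a median of 52.4% over all windows. Whether matches to the shorter motifs go with the base content of the windows was not tested, and a match is no evidence of binding.

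Among the KLF genes, Klf13 and Klf6 were the highest members and Klf2 and Klf3 lay below them. Klf13 (ENSMUSG00000052040.10, chromosome 7, 63886351 to 63938915, minus strand), a factor known for driving late expression of the chemokine gene Ccl5 in T cells, stood at 46.8, 53.1, 54.1 and 54.1 TPM, a mean of 52.0 ± 3.51 (n = 4). Replicate 1 was the low value, apart from the other libraries. Klf6 (ENSMUSG00000000078.6, chromosome 13, 5861489 to 5870393, plus strand) stood at 48.4, 51.8, 45.1 and 43.9 TPM, a mean of 47.3 ± 3.58. Klf6 exceeded Klf13 in replicate 1 only, and their ratio, -0.14 ± 0.17 on the log2 scale (n = 4), was smaller than the SD over libraries (p = 0.375 by the exact permutation test, adjusted p = 0.402).

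Klf2 (ENSMUSG00000055148.7, chromosome 8, 72319033 to 72321656, plus strand) stood at 20.8, 19.3, 20.5 and 18.9 TPM in replicates 1 to 4, a mean of 19.9 ± 0.892. Its coefficient of variation of 4.49% was near its counting error of 3.79%. Other members varied further beyond theirs, as Klf13 with 6.74% against 1.16% and Foxp1 with 4.68% against 0.703%. Klf2 was 2.38-fold below Klf6, with a log2 ratio of -1.25 ± 0.12 (n = 4) in 4 of 4 libraries. Klf3 (ENSMUSG00000029178.14, chromosome 5, 64803388 to 64832901, plus strand), a KLF protein known mainly as a transcriptional repressor, stood at 18.4, 17.7, 18.9 and 18.6 TPM, a mean of 18.4 ± 0.523. Klf2 exceeded Klf3 by 0.11 ± 0.06 on the log2 scale (n = 4) in 4 of 4 libraries. That order turned when the length of the longest coding transcript was used, since the exons annotated for Klf3 add up to 11243 bases and its longest coding transcript has 5221. Klf3 then had 28.6 ± 0.840 TPM and Klf2 14.4 ± 0.660, a log2 ratio of -0.99.

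The most abundant KLF transcript was not among the members. Klf16, a GC-box binding factor, stood at 107, 118, 121 and 116 TPM and took 39.7 ± 1.06% of the summed TPM of the 17 KLF genes. Klf13 took 17.9 ± 0.821%, Klf6 16.3 ± 1.32%, Klf2 6.86 ± 0.421% and Klf3 6.34 ± 0.257%. By counts without length the shares of Klf13 and Klf16 changed places, to 29.9% and 23.6%. Klf10, induced by TGF-β, was level with Klf2 and Klf3 at 18.9 ± 1.19 TPM, and Klf7 was at 9.67 ± 0.781. Klf9 had 4.08 ± 1.03 TPM and Klf11 2.45 ± 0.459. Each library had under 1 TPM of the other 8 KLF genes, among them Klf4, a further quiescence factor of CD8+ T cells, at 0.296 to 0.928 TPM. Klf1, Klf5, Klf8 and Klf12 also had fragments, and Klf14, Klf15 and Klf17 had none. Taking 3 fragments as the floor, levels of up to 0.0700, 0.0766 and 0.0891 TPM could have been missed in these libraries.

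**Figure D2:**
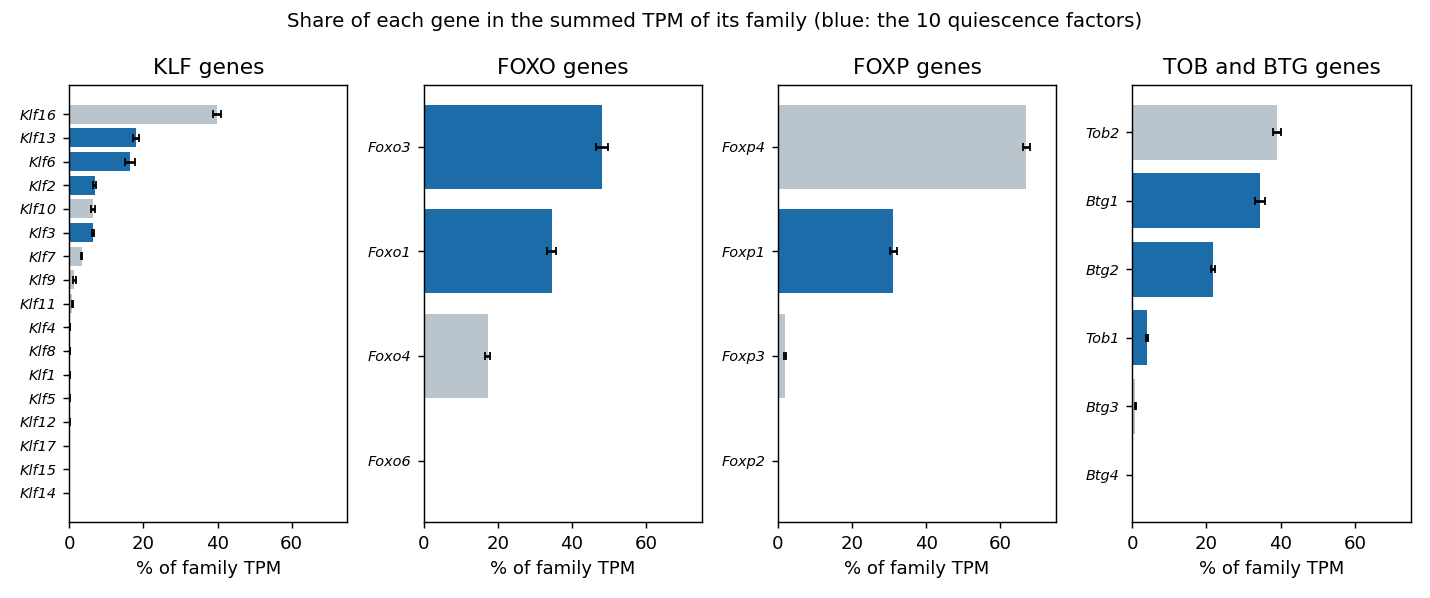
Mean share of each gene in the summed TPM of its family over 4 libraries, in percent, with SD as bars and the members in blue. By TPM, Klf16 (39.7%), Foxp4 (67.0%) and Tob2 (39.1%) were the largest in their families and are not members, while Foxo3 (48.2%) led the FOXO genes. By counts without length, the members Klf13, Foxp1 and Btg1 were ahead of them.

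Among the FOXO genes, Foxo3 was above Foxo1 and Foxo1 above Foxo4. Foxo3 (ENSMUSG00000048756.11, chromosome 10, 42181841 to 42276755, minus strand) stood at 47.1, 45.4, 48.0 and 51.7 TPM, a mean of 48.0 ± 2.63 (n = 4). Foxo1 (ENSMUSG00000044167.6, chromosome 3, 52268336 to 52353221, plus strand), which sustains Il7r and Ccr7 in naive cells, stood at 35.3, 34.0, 34.8 and 33.7 TPM, a mean of 34.4 ± 0.748. The highest Foxo1 value was below the lowest Foxo3 value. Foxo1 had the smallest spread of the members, with a coefficient of variation of 2.17%. Foxo1 was 1.39-fold below Foxo3, with a log2 ratio of -0.48 ± 0.10 (n = 4) in 4 of 4 libraries. In shares of the FOXO total, Foxo3 took 48.2 ± 1.57%, Foxo1 34.6 ± 1.21% and Foxo4, an X-linked relative, 17.2 ± 0.761% at 16.5 to 17.8 TPM. Foxo6 was at 0 in replicates 1, 2 and 4.

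Foxp1 (ENSMUSG00000030067.17, chromosome 6, 98925338 to 99522721, minus strand) stood at 76.1, 73.8, 82.1 and 75.7 TPM, a mean of 76.95 ± 3.60 (n = 4). It was 2.23-fold above Foxo1 in 4 of 4 libraries (log2 ratio of Foxo1 to Foxp1 -1.16 ± 0.06). Foxp1 is the member with the longest annotated exons, 13751 bases against 7177 in its longest coding transcript. Same-strand exons of other genes cover 3.16% of these bases, and no other member shares same-strand exon bases with another gene. By its longest coding transcript it had 107 ± 5.13 TPM and passed Btg2, which had 67.0 ± 3.83, and its log2 distance to Foxo1 widened to -2.10. Foxp4, its abundant relative, stood at 163, 170, 173 and 157 TPM and took 67.0 ± 1.02% of the FOXP total against 31.1 ± 0.994% for Foxp1. By longest coding transcript these shares were 57.3% and 41.3%, and by counts without length Foxp1 was ahead with 55.9% against 43.1%. Foxp3, the regulatory T-cell factor, was at 4.17 to 5.81 TPM, and Foxp2 had 9 fragments in all.

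The order of the members had 3 steps at which the ranges of the libraries overlapped. Klf13 was above Foxo3 by 0.11 ± 0.10 and Foxo3 above Klf6 by 0.02 ± 0.18 on the log2 scale (n = 4), in 3 and 2 of 4 libraries, and Klf3 was above Tob1 by 0.11 ± 0.11 in 4 of 4 with overlapping ranges. Foxo3 was below Klf6 in replicates 1 and 2 (-0.041 and -0.190), the libraries rich in Xist. It was above Klf6 in replicates 3 and 4 (0.090 and 0.235). Whether the sign goes with that difference between libraries was not tested. Without replicate 4, Klf6 (48.5 TPM) came before Foxo3 (46.8). The other 6 of the 9 neighbouring steps had ranges that did not overlap, the narrowest being Klf2 over Klf3. Of the 45 pairs that 10 members form, 42 kept their order by longest coding transcript and 36 by counts without length.

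**Figure D3:**
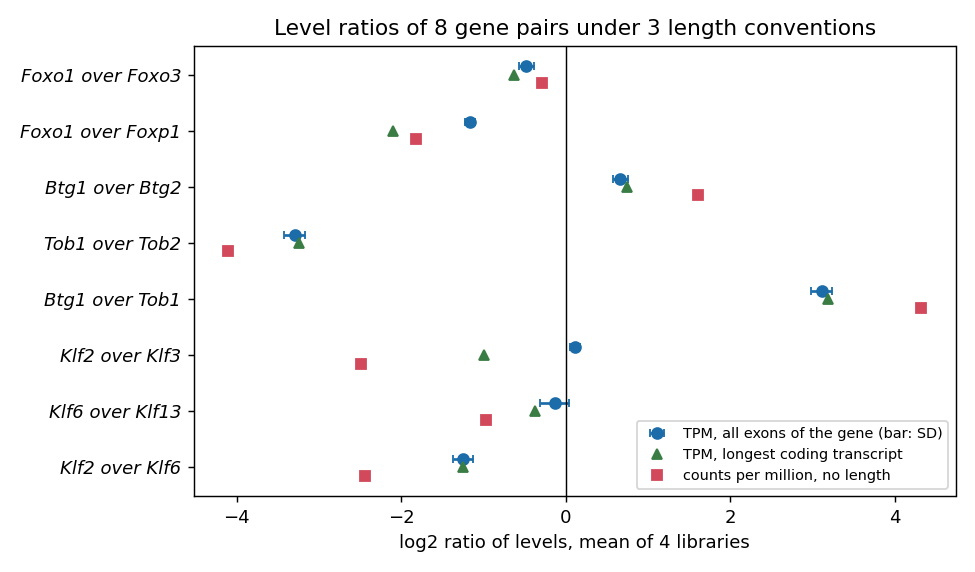
Log2 ratio of levels for 8 gene pairs, mean of 4 libraries, from TPM over all annotated exons (circles, bar: SD), from TPM over the longest coding transcript (triangles) and from counts scaled by library total without length (squares). Klf2 over Klf3 changes sign, from 0.11 to -0.99 and -2.49, and the other 7 pairs stay on one side of 0.

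The 4 libraries lay within 1.19-fold of each other for every member. Across 12712 genes, edgeR's goodness-of-fit test of a model with only an intercept called 46 genes (0.362%) as varying between libraries beyond other genes of their level. None of the 10 members was among them (edgeR adjusted p = 1.00 for each), and none had an unadjusted p under 0.05, as 704 genes did (5.54%). With 1 common dispersion for all genes the test called 862 genes (6.78%), and again 0 of 10 members. Beside shares this small over all genes tested, 0 of 10 says little about the members. Without replicate 2, the deepest library, the trended fit called 25 genes and 0 members. The members' residual deviance ran from 0.520 in Foxo1 to 3.76 in Klf13, with a median of 1.55 beside 1.98 over all genes tested. The largest ratio between the highest and the lowest library was 1.19, in Tob1. Replicate 3 was the highest library for 5 members and the lowest for 0, while it was the highest for 25.6% and the lowest for 22.9% of the genes tested. Replicates 2 and 4 were each the lowest for 4 members, against 15.4% and 27.7% of the genes tested.

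Across genes, the deviation of replicate 1 went with base content. Over 12692 tested genes, the deviation of replicate 1 from the mean of 4 libraries fell with the GC content of the transcript (Spearman's rho across genes -0.344, against 0.084, 0.185 and 0.201 in replicates 2 to 4). The points share the libraries and are not independent. By construction the deviations of a gene cancel over the 4 libraries. The values of replicates 2 to 4 are therefore not separate from that of replicate 1. Klf13 has 55.5% G and C, and its log2 deviation in replicate 1 was -0.15, or -0.08 once a smooth trend on GC content was taken off. Replicate 1 remained its lowest library after that. The GC-rich Klf16 (60.4%) and Tob2 (53.4%) were lowest in replicate 1 as well, and so was Btg2 with 49.7%. Klf2, with 61.6%, was highest there, Foxp4, with 63.4%, was lowest in replicate 4, and Foxo3, with 53.2%, was lowest in replicate 2. With the trend taken off, the deviation of Klf2 in replicate 1 grew from 0.064 to 0.134. Those of Klf16 and Tob2 shrank from -0.112 to -0.032 and from -0.092 to -0.042. The part of base content in these values was not tested further.

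**Figure D4:**
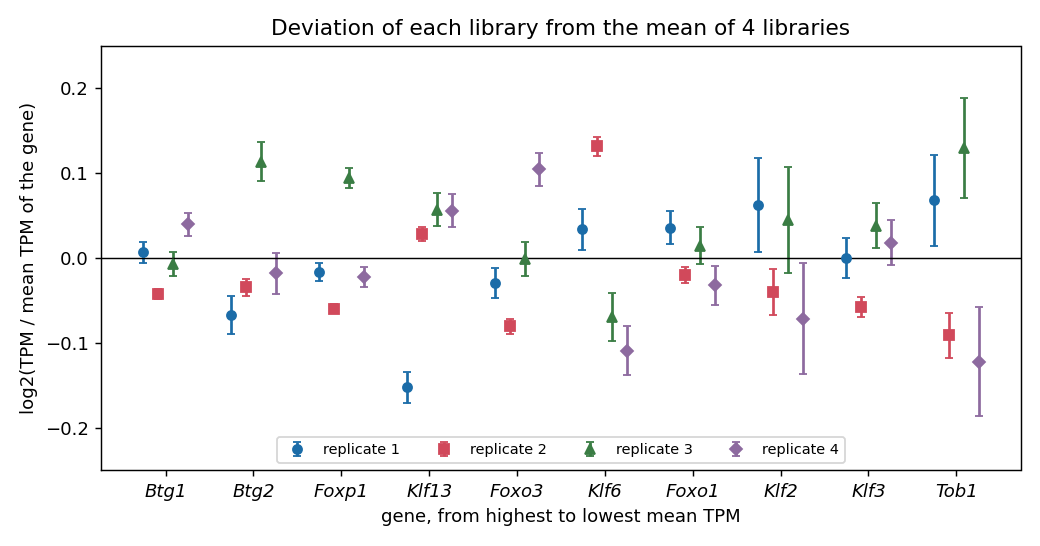
Log2 ratio of each library's TPM to the gene's mean for the 10 genes, with bars of 1 counting standard error from the fragment counts. Klf13 in replicate 1 (-0.15) and Klf6 in replicate 2 lie farthest from 0 among the deeply counted genes, while the bars are widest for Klf2 and Tob1.

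The genes listed for the CCR4-NOT complex, through which BTG and TOB proteins act, and for the PAN deadenylase were all transcribed. Their proteins were not measured. All 13 genes of the CCR4-NOT and PAN list reached 10 TPM in the 4 libraries, as did 63.8% of all genes tested. Their median level was 80.7 TPM. Cnot9, a subunit that links RNA-bound adaptors, had 196 ± 5.68 TPM and the catalytic subunit gene Cnot6 130 ± 6.03 (SD, n = 4). Cnot2, a structural subunit, had 109 ± 2.27 and the scaffold gene Cnot1 101 ± 4.09. BTG and TOB proteins bind CNOT7 and CNOT8, whose genes had 52.4 ± 7.03 and 93.8 ± 6.13 TPM. Btg1, Btg2, Btg3, Tob1 and Tob2 together summed to 2.94 ± 0.308 times the sum of Cnot7 and Cnot8. The AU-rich element binding genes of the ZFP36 group, which also recruit this complex, had 279 ± 13.4 TPM for Zfp36l1, 120.2 ± 9.08 for Zfp36l2 and 34.1 ± 3.95 for Zfp36.

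Genes that act on FOXO proteins were mostly well transcribed, and the kinase gene Sgk1 was low. Of 19 such genes, 16 (84.2%) reached 10 TPM in the 4 libraries, beside 63.8% of all genes tested. The median level of the 19 was 34.8 TPM. Sgk1 had 0.534 to 0.872 TPM. The 14-3-3 genes Ywhae (772 ± 55.5 TPM) and Ywhaz (286 ± 11.4), whose proteins hold phosphorylated FOXO in the cytoplasm, were among the highest. Akt1, the kinase that phosphorylates FOXO, had 310 ± 12.8 TPM and Pik3cd, the PI3-kinase catalytic subunit of lymphocytes, 285 ± 18.7. Above Klf2, the MEKK3, MEK5 and ERK5 kinase genes Map3k3, Map2k5 and Mapk7 had 90.1 ± 8.56, 41.2 ± 0.931 and 20.2 ± 0.890 TPM. Of the MEF2 genes, whose proteins bind the motif found before Klf2, Mef2d had 64.0 ± 4.13 TPM, Mef2a 10.9 ± 0.402 and Mef2c 0.0800 ± 0.0377. Mef2c was the single gene of 7 in that list under 10 TPM.

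Trafficking genes under KLF2 and FOXO1 were uneven. S1pr1, the receptor for lymph-node exit, stood at 7.53, 8.39, 8.08 and 6.55 TPM in replicates 1 to 4. Il7r, the IL-7 receptor chain, stood at 8.19, 8.94, 7.21 and 6.80. These 2 were the lowest of the 6 genes of the list. Ccr7, the lymph-node homing receptor, stood far above them at 586, 602, 611 and 622 TPM. The integrin gene Itgb7 had 69.3 ± 10.4 TPM, lowest in replicate 1 (54.5), and S1pr4 had 32.1 ± 0.675. Cd69, which is not a target in this sense but encodes a protein that removes S1PR1 from the surface, had 81.4 ± 2.56.

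FOXO target genes of growth arrest and stress defence were mostly moderate. Of 14 such genes, 9 (64.3%) reached 10 TPM in the 4 libraries, near the 63.8% of all genes tested, and 14 reached 1 TPM. The antioxidant genes Cat (74.5 ± 1.59 TPM) and Sod2 (66.6 ± 2.67) and the glucose-uptake inhibitor gene Txnip (49.9 ± 3.84) led the list, followed by the death gene Bcl2l11 (27.8 ± 2.03). Cdkn1b, encoding the cell-cycle inhibitor p27, had 14.5 ± 1.99. Pik3ip1 (1.93 ± 0.359), Irs2 (2.50 ± 0.258) and Fbxo32 (1.77 ± 0.281) were the lowest. None of the tested genes in the partner, regulator and target lists was called as varying between libraries, as only 0.362% of all genes tested were.

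**Figure D5:**
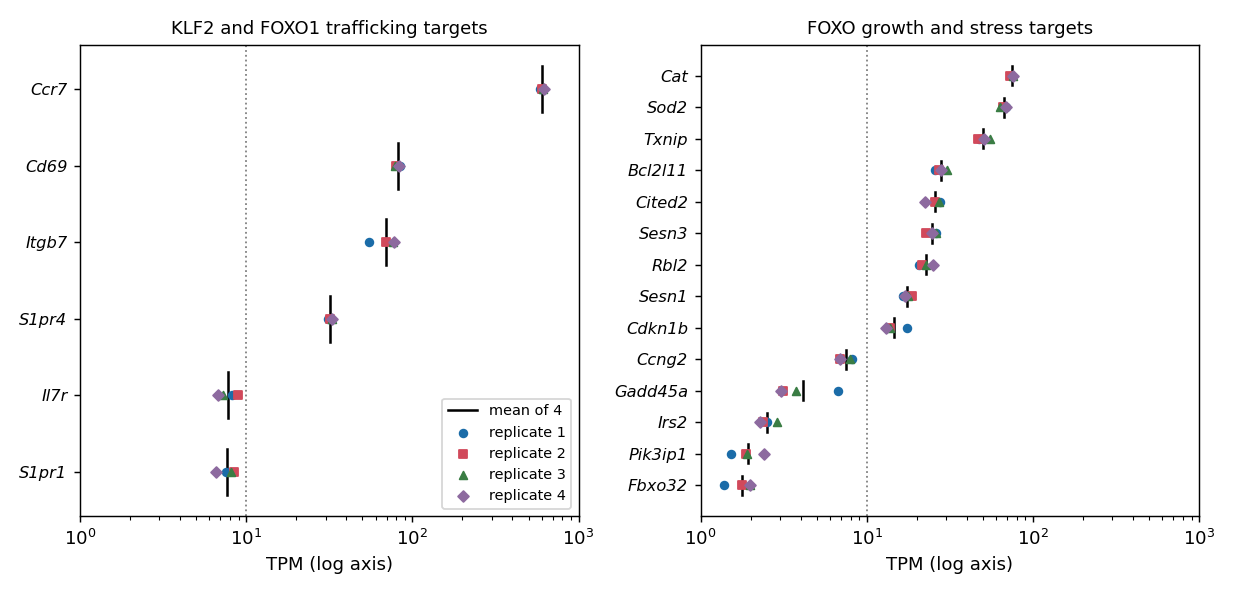
TPM in each library on a log axis for 6 trafficking genes linked to KLF2 and FOXO1 (left) and 14 FOXO growth and stress target genes (right), with the mean of 4 as a black line and 10 TPM dotted. S1pr1 and Il7r lie just under the dotted line and Ccr7 lies at 586 to 622 TPM.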

How the data were processed

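The authors deposited 1 table of fragment counts per library, whole numbers per gene. Exons of GENCODE M13 genes were counted with featureCounts 1.4.6-p4, taking pairs with both ends aligned and strand setting 2, per the file headers. Its options for counting fragments with several loci or several genes do not appear there, and STAR alignment is named without settings. The build is mm10 per the labels. Symbols came from a GENCODE table (50376 of 50600 identifiers matched). The copies Btg1-ps1 and Btg1-ps2 had no fragment, and reads shared with them would be lost from Btg1.

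From these counts TPM, CPM and FPKM were computed with the exon lengths in the files. Lengths of longest coding transcripts and GC content came from a later GENCODE release than those exon lengths. A transcript can therefore exceed the exons counted, as in Tob2 with 4151 against 3994 bases. Library totals ran from 47558517 to 273136467. Variation between libraries was tested in edgeR 4.0.16 (R 4.3.3): filterByExpr with a minimum count of 10, TMM factors, trended dispersion, and residual deviance against chi-square with 3 degrees of freedom, Benjamini-Hochberg adjusted at 0.05 over 12712 genes. The step was tested on simulated data. Every pair of libraries differed by more than counting noise (9.67 to 31.0 chi-square units per degree of freedom), so none was taken for a second deposit of another. This does not show separate animals or cultures. Pairs used exact sign-flip tests in scipy 1.17.1. A floor is 3 fragments and covers counting error only. Replicate numbers are those of the labels. Members, lists and pairs were chosen with earlier results of these data known. Named are all members and family genes, and in each other list mainly the 4 highest genes; further list genes (Cnot7, Cnot8, Sgk1, Mef2a, Cdkn1b, Tsc1, Il7r, S1pr1 and the low FOXO targets among them) were chosen after their values were seen. Protein sequences were not used here, and some genes of the lists are not reported here.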

Additional observations from a re-analysis of the deposited data

Results flagged for a closer look

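Of 74 sets of 4 library values, 3 had a highest or lowest library set apart from the rest. The limit was the 95% critical value of Dixon's gap ratio for 4 samples. The sets were 8 pair ratios and the members, family genes and highest list genes with a fragment in every library. Chance gives about 1 such set in 20, and 3 of 74 is not above that. Klf13 had 46.8 TPM in replicate 1 against 53.1 to 54.1 in the other libraries. Klf10 had 17.1 TPM in replicate 2, the deepest library, against 19.3 to 19.7. Map2k5, the MEK5 kinase gene, had 39.8 TPM in replicate 3 against 41.5 to 41.8. None of these 3 genes was called as varying between libraries by edgeR. List genes named for other reasons were not examined in this way. Among them, Cdkn1b had 17.45 TPM in replicate 1 against 13.11 to 13.71 in the other libraries.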

How the results depend on the processing

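The use of longest coding transcripts and the removal of a GC trend are alternatives added after seeing the data. The 46 varying genes became 862 with a common dispersion and 25 to 40 when any one replicate was omitted (25 for replicate 2), while 0 members were called under every alternative run. The members' median of 47.7 TPM became 56.5 with mitochondrial, ribosomal protein and predicted genes out of the total, 36.3 by longest coding transcript and 14.0 in FPKM, where 6 members were at 10 in every library. By counts without length, log2 ratios were -0.285 for Foxo1 over Foxo3, -1.83 for Foxo1 over Foxp1, 1.61 for Btg1 over Btg2, -4.10 for Tob1 over Tob2, 4.32 for Btg1 over Tob1, -0.974 for Klf6 over Klf13, -2.44 for Klf2 over Klf6 and -2.49 (reversed) for Klf2 over Klf3. By longest coding transcript they were -0.624 for Foxo1 over Foxo3, -2.10 for Foxo1 over Foxp1, -0.376 for Klf6 over Klf13 and -0.994 (reversed) for Klf2 over Klf3. The members' 52.0% of the TPM of all 31 family genes became 63.9% by counts and 55.2% by longest coding transcript. The shifts by counts and by longest coding transcript follow from the lengths used. Klf2 and Tob1, with the fewest fragments, have the largest counting errors.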

Other observations

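Other genes that hold T cells quiet were transcribed beside genes of cycle entry. All 13 of the former reached 10 TPM in the 4 libraries, as did 63.8% of all genes tested. Their median level was 62.0 TPM, led by Slfn2 (896 ± 11.7, SD, n = 4), whose loss ends quiescence in mice, Tcf7 (620.0 ± 14.4), the transcription factor gene Ets1 (173 ± 2.58) and Vsir (125 ± 7.997), which encodes the checkpoint protein VISTA. Tsc1, a brake on mTOR, had 22.9 ± 2.70 TPM. All 12 genes of cycle entry did so too, and their median level was 211 TPM. Pcna, the replication clamp gene, had 859 ± 38.6 TPM, the helicase gene Mcm5 764 ± 48.9 and Myc 665 ± 20.8. Cdk4, the kinase partner of D-type cyclins, had 564 ± 16.2 TPM. Libraries of whole populations cannot tell whether the same cells hold both kinds of transcript.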
